A study of Schizosaccharomyces pombe with 6 samples.

Results

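The genes of glycolysis and alcoholic fermentation examined here were tpi1, adh1, tdh1, gpd3, pgk1, eno101, fba1, pyk1, pdc101 and gpm1, 10 genes usually described as among the most highly transcribed in fission yeast. Array probes that overlap each annotated gene were taken, and genes on chromosome I beyond 3700000 were left out because the array's coordinates there did not match the annotation. That left 8 of the 10 genes with 46 probes, out of 4200 genes and 42659 probes in all. pyk1 and gpm1 lie in the part left out and have no value here. No RNA was measured in these samples, so the transcription level of the genes could not be checked.

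The study mapped Rad52 by chromatin immunoprecipitation (ChIP) on 2-colour tiling arrays in fission yeast, Schizosaccharomyces pombe, with 3 arrays labelled WT and 3 labelled Δrad3. Both strains shared cdc25-22, a heat-sensitive form of the phosphatase gene that drives entry into mitosis, so the WT group is not a plain wild type. Per the labels' protocols, cultures in EMM6S medium were held for 4 h at 36.5 °C, released at 25 °C, treated with 6 mM hydroxyurea, which starves replication forks of nucleotides, and collected 60 min after release. Δrad3 cells lack Rad3, the ATR-family checkpoint kinase. On every array, per the labels, the immunoprecipitate (IP) carried the green dye and input DNA the red dye. A dye bias is therefore part of every level, and there was no control IP.

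Glycolysis splits a hexose into a pair of trioses and oxidises them to pyruvate. In yeasts growing on glucose, pyruvate is then decarboxylated to acetaldehyde and reduced to ethanol, which restores NAD+ for the oxidation step. Rad52 is a homologous recombination protein that binds single-stranded DNA and anneals complementary strands, and it gathers at broken DNA and at stalled or collapsed replication forks. Strongly transcribed genes are known as places where replication and transcription machineries meet.

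The sequences bordering the genes are shown for members whose signal is described in detail below, because the highest probes lay past the 3′ ends of the genes. They are 250 bases of the ASM294v3 sequence, printed 5′ to 3′ in the direction of transcription. Before the annotated start, the windows are chrIII:1591042-1591291 (+) for adh1, chrIII:939663-939912 (+) for tpi1, chrII:2200946-2201195 (+) for eno101 and chrI:103598-103847 (-) for pdc101. Capitals mark TATAAA or TATATA on either strand, the letters of a TATA box.

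adh1: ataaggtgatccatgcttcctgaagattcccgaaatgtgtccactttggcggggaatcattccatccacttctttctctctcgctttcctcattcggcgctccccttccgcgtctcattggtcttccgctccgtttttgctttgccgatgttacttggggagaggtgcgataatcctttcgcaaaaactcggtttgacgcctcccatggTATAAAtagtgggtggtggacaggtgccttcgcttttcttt
tpi1: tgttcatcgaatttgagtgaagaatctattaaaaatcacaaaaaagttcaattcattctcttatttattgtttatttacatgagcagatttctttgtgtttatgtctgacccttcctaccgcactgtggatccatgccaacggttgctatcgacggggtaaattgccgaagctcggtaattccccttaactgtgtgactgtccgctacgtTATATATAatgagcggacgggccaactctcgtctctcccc
eno101: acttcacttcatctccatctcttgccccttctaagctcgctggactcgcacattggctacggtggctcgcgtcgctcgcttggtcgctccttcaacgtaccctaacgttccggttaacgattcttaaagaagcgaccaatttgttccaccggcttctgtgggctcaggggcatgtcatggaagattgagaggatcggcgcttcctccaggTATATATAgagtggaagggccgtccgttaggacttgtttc
pdc101: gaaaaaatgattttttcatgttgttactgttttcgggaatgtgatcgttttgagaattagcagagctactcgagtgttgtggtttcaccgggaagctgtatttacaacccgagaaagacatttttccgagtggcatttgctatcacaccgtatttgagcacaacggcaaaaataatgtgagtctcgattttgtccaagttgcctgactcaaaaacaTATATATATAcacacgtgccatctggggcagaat

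All 8 members had TATAAA or TATATA in the last 60 bases before the annotated start, on either strand, against 16.9% of 4175 genes. The bases between the last match and the start numbered 24 in pdc101, the nearest, and 35 in adh1, the farthest. Over the whole 250 bases TATAAA was found in 4 of 8 members, against 45% of genes, and TATATA in 5 of 8, against 26.0%; pgk1 had both, in part overlapping. The windows held 46.8% to 60.0% A+T, with a median of 51.2%, against 68% over the 4175 genes. A match is a string of letters and not a measured binding site.

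The windows past the annotated end are chrIII:1592890-1593139 (+) for adh1, chrI:101465-101714 (-) for pdc101, chrII:1689600-1689849 (+) for fba1 and chrII:2202653-2202902 (+) for eno101. Capitals here mark runs of AAAAAA or TTTTTT, which can overlap one another in longer runs.

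adh1: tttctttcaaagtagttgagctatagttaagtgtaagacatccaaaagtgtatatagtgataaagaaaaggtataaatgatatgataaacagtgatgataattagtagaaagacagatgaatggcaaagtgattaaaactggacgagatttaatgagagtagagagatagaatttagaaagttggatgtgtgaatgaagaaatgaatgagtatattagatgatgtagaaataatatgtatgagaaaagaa
pdc101: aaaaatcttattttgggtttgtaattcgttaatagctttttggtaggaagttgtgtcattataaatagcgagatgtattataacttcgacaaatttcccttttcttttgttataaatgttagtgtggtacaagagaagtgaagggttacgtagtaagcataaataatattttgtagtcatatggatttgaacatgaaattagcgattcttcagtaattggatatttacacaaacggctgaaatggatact
fba1: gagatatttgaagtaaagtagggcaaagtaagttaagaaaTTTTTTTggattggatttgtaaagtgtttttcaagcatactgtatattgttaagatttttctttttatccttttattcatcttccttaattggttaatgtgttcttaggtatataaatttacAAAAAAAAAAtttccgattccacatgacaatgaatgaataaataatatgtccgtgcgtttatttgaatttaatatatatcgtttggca
eno101: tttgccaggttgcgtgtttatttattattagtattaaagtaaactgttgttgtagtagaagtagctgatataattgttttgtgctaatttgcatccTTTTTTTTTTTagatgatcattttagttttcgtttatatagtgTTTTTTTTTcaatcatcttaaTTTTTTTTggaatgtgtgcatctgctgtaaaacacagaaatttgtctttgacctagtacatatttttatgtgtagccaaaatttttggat

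Such a run stood in 6 of 8 members, against 61.9% of 4174 genes, and neither adh1 nor pdc101 had one. A+T in these windows was 63.6% to 74.4%, with a median of 70%, against 68.4% over genes. The members' borders thus differed from those of other genes in base composition before the start and hardly past the end.

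Each level given here is log2 IP over input, averaged over the probes of a gene and set to 0 at the array median, and a fit across all 4200 genes in limma gave the tests. Median signal over local background was 5.04 to 20 in the input and 5.10 to 25.9 in the IP, and values of genes correlated between arrays at 0.133 to 0.606. rad3, checked in the input DNA, was missing a run of 9 probes on all 3 Δrad3 arrays, at -5.49 to -6.18. They were present on WT replicate 1 (-0.41) and WT replicate 3 (-0.64). The library labelled WT replicate 2 lacked them too, at -6.18, and went against its label at rad3. A further run of 15 rad3 probes read -6.25 on that library and lay between -0.17 and -0.23 on each of the other 5 arrays, so its gap also differed from that of the Δrad3 arrays. Counts of members and the other main results are therefore given without it too, an alternative extended to windows, lists and peaks after seeing the data. The protocol text also differed between samples. WT replicates 1 and 2 carry a chromatin text, and the other 4 samples an RNA text, and hydroxyurea is given as added 10 min after release for those 4 alone. Text and strain overlap so far that they cannot be told apart. Among the 4 arrays of the RNA text, with 1 WT array assumed to vary like the others, limma called 3 members in WT (2.21% of genes), tdh1 being lost at an adjusted p of 0.0574, and 0 between strains. The members' mean was 0.58 in WT and 0.19 in Δrad3 there. Nothing in the labels gives replicates as separate cultures, and the p-values therefore cover the spread among these 6 arrays, which may be technical.

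In WT, Rad52 IP/input stood above the array median at all 8 members on all 3 arrays. Of all genes, 21.3% were above the median on all 3 WT arrays, and 29.2% on replicates 1 and 3, the arrays that remain without the library labelled WT replicate 2. The members' mean was 0.70, 0.58 and 0.58 on the WT arrays 1, 2 and 3 (0.62 ± 0.07, SD, n = 3), where the median of all genes was 0.02, -0.07 and -0.06. limma called 4 of the 8 enriched in WT, at an adjusted p under 0.05 and a mean of at least 0.5, against 1.9% of all genes: tdh1, pdc101, tpi1 and adh1. The median member stood at the 98.3rd, 85.2nd and 95.9th percentile of genes on the 3 WT arrays.

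The early steps were represented by fba1 and tpi1. fba1 (chromosome II 1688321 to 1689599, forward strand) encodes the aldolase that splits fructose 1,6-bisphosphate, and 5 probes gave 0.62, 0.31 and 0.42 on WT replicates 1 to 3. Its mean of 0.45 ± 0.16 (SD, n = 3) lay under the 0.5 limit, and the adjusted p was 0.0649 in limma. tpi1 (chromosome III 939913 to 940869, forward strand) encodes triosephosphate isomerase, which interconverts the products of aldolase. Its 4 probes gave 0.54, 0.97 and 0.75, a mean of 0.75 ± 0.22 (SD, n = 3; adjusted p = 0.0169 in limma). The library labelled WT replicate 2 was the highest at tpi1 and the lowest at fba1.

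tdh1 and gpd3 encode glyceraldehyde-3-phosphate dehydrogenase, the oxidation step that uses NAD+. tdh1 (chromosome II 2807595 to 2809051, forward strand) had the highest WT mean of the members, with 0.93, 0.96 and 0.86 over 4 probes. This gave 0.92 ± 0.05 (SD, n = 3; adjusted p = 0.0157 in limma), rank 11 of 4200 genes. gpd3 (chromosome II 578117 to 580056, forward strand) spread more, at 0.24, 0.91 and 0.52 over 6 probes, with a mean of 0.56 ± 0.33 and an adjusted p of 0.0641 in limma. With the slide as a block in limma, gpd3 passed (adjusted p = 0.0182), but in that blocked fit without the library labelled WT replicate 2 it stood at 0.35 and did not (adjusted p = 0.133 in limma). The coding sequences of tdh1 and gpd3 are 93.0% identical and share an unbroken run of 203 bp, longer than any probe on the array (45 to 60 nt). Signal of one gene may therefore reach probes of the other, though where the run lies against the probes was not checked. The values of both genes inside the coding sequence are uncertain. With the coding sequence alone tdh1 stood at 0.72 (adjusted p = 0.0896 in limma), over 2 probes that both lie between its start and midpoint.

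pgk1 and eno101 act in the lower part of glycolysis, and neither was called in WT. pgk1 (chromosome II 4157821 to 4159461, reverse strand) encodes phosphoglycerate kinase, an ATP-forming step, and stood at 0.58, 0.26 and 0.27 (0.37 ± 0.18, SD, n = 3; adjusted p = 0.0794 in limma). eno101 (chromosome II 2201196 to 2202652, forward strand) encodes an enolase, and stood at 0.83, 0.18 and 0.31 (0.44 ± 0.35, SD, n = 3; adjusted p = 0.0855 in limma). In both genes WT replicate 1 was the highest. The second enolase gene, eno102, which is 63.4% identical to eno101 over the coding sequence, stood below the array median in WT, at -0.52 ± 0.25 (SD, n = 3; adjusted p = 0.0469 in limma).

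Fermentation was represented by pdc101 and adh1, and both were called in WT. pdc101 (chromosome I 101715 to 103597, reverse strand) encodes pyruvate decarboxylase, and 7 probes gave 1.05, 0.52 and 0.82 (0.80 ± 0.27, SD, n = 3; adjusted p = 0.0166 in limma). adh1 (chromosome III 1591292 to 1592889, forward strand) encodes the alcohol dehydrogenase that makes ethanol, and 8 probes gave 0.83, 0.50 and 0.68 (0.67 ± 0.17, SD, n = 3; adjusted p = 0.0221 in limma). In both genes the library labelled WT replicate 2 was the lowest.

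In order of the WT mean the members ran tdh1, pdc101, tpi1, adh1, gpd3, fba1, eno101 and pgk1, and each differed from its neighbour in that order by less than the larger of their SDs. With normexp background correction the order was another: pdc101 0.67, pgk1 0.46, tpi1 0.40, tdh1 0.36, eno101 0.16, fba1 0.11, adh1 0.086 and gpd3 0.033. The count of 4 did not stand on every selection of arrays. Without the library labelled WT replicate 2 it was 2, against 0.452% of genes, with tpi1 at an adjusted p of 0.0587 and tdh1 at 0.0549 in limma, and without WT replicate 3 it was 0, against 0.286% of genes. It was also 0 with a trended robust variance, where all 4 stood at an adjusted p of 0.102 in limma, and 0 with normexp background correction, and in each of these fits 0 of 4200 genes were called in WT.

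**Figure D1:**
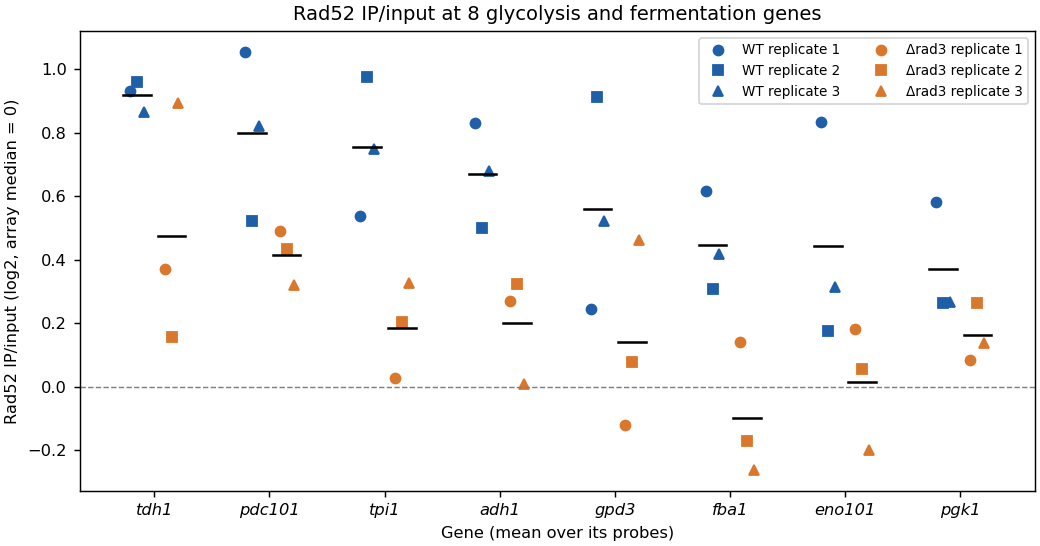
Rad52 IP/input (log2, array median 0, vertical axis) at the 8 measured genes (horizontal axis, in order of the WT mean), with 1 point per array (circle, square and triangle for replicates 1, 2 and 3) and a bar at the mean of 3 arrays. All 24 WT points lie above 0, and every WT mean lies above the Δrad3 mean of the same gene.

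The second comparison set the levels at these genes on the arrays labelled Δrad3 against those on the arrays labelled WT. The library labelled WT replicate 2, which also lacked rad3 signal in the input, counted as WT here. Its mean over members was 0.58, as on WT replicate 3. Whether the levels follow the loss of rad3 itself was not tested. In Δrad3 the members lay nearer to the array median, with a mean over members of 0.18, 0.17 and 0.21 on replicates 1, 2 and 3 (0.19 ± 0.02, SD, n = 3). limma called 0 of 8 enriched in Δrad3, against 0.143% of all genes. All 8 had a lower mean in Δrad3 than in WT, as did 51.9% of all genes. No single difference passed: limma called 0 of 8 between strains, as it did 0 of 4200 genes in either direction. At an unadjusted p under 0.05, 4 members (tpi1, fba1, adh1 and tdh1) were lower in Δrad3, against 2.43% of genes. Without the library labelled WT replicate 2 they were 5 (tpi1, adh1, eno101, fba1 and pdc101), against 2.57%.

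The largest difference was at tpi1, which stood at 0.03, 0.20 and 0.33 on Δrad3 replicates 1, 2 and 3, with all 3 below the lowest WT array. The difference was -0.57 (SE 0.18), with an adjusted p of 0.712 in limma. Without the library labelled WT replicate 2 it was -0.46. The differences at fba1 (-0.61), eno101 (-0.56), adh1 (-0.55) and pdc101 (-0.52) were then larger. fba1 fell on the other side of the array median on Δrad3 replicates 2 and 3, at 0.14, -0.17 and -0.26, and again the groups did not overlap. Its difference was -0.54 (SE 0.17; adjusted p = 0.712 in limma). adh1 stood at 0.27, 0.32 and 0.01, all below its WT values, a difference of -0.47 (SE 0.17; adjusted p = 0.727 in limma).

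pdc101 stood at 0.49, 0.43 and 0.32 in Δrad3 (0.41 ± 0.09, SD, n = 3), all under its lowest WT array. Its difference was -0.38 (SE 0.18; adjusted p = 0.739 in limma). At tdh1 the groups overlapped, since Δrad3 replicates 1 and 2 stood at 0.37 and 0.16 and replicate 3 at 0.89, inside the WT range. Its difference was -0.44 (SE 0.20; adjusted p = 0.739 in limma). gpd3 (-0.12, 0.08 and 0.46) and eno101 (0.18, 0.06 and -0.20) overlapped with WT too, with differences of -0.42 and -0.43. pgk1, at 0.08, 0.26 and 0.14, had the smallest difference, -0.21 (SE 0.16; adjusted p = 0.767 in limma), and its groups came apart by less than the second decimal. In all, the arrays of the strains did not overlap at 5 of 8 members, with Δrad3 lower each time, against 7.48% of genes in that direction. Without the library labelled WT replicate 2 this held at 6, eno101 added, against 12.8% of genes. The difference moved by more than 1.5 times with 1 array left out at 4 members. It was -0.24 at gpd3 without the library labelled WT replicate 2, -0.23 at eno101 and -0.10 at pgk1 without WT replicate 1, and -0.29 at tdh1 without Δrad3 replicate 2.

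WT and Δrad3 arrays of equal number lay on one slide, so each Δrad3 array can be set against the WT array beside it. Δrad3 was lower in 23 of 24 such pairs of values, which share 3 slides and are not separate observations. The exception was tdh1 on slide 3, at 0.03 higher. Of the members, 7 of 8 were lower on all 3 slides, against 21% of genes, and 7 of 8 on slides 1 and 3, against 34.8%. Those 2 slides gave 15 of 16 pairs. The share of pairs over all genes was counted for neither number of pairs. The difference was -0.51, -0.77 and -0.42 at tpi1 and -0.48, -0.48 and -0.68 at fba1 on slides 1, 2 and 3. At pgk1 on slide 2 it was -0.0015. The slide as a block left the count of members called between strains at 0.

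Averaged over the members, the channels were compared apart, as log2 signal against the array median. The members' mean input was -0.09, -0.10 and 0.51 in WT and -0.04, -0.17 and 0.46 in Δrad3. Their IP signal was 0.60, 0.48 and 1.07 in WT and 0.13, -0.02 and 0.62 in Δrad3. The IP signal was lower in Δrad3 on all 3 slides at 7 of 8 members, and the share of all genes doing so was not counted. pdc101 was the exception, with IP differences of -0.44, 0.11 and -0.23 and an input higher in Δrad3 by 0.13, 0.19 and 0.31 on slides 1, 2 and 3. Both channels were brighter on slide 3, in both strains alike. adh1 had the brightest input of the members, at 0.98 to 2.29 over the 6 arrays.

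Base composition differed between the members and other genes, and its correlation with the level varied among arrays. The member genes hold 49.4% to 56.1% A+T (median 52.1%), against a median of 63.2% over all genes. Over the 4200 genes the level correlated with A+T at -0.35, -0.15 and -0.05 in WT, and at 0.09, 0.06 and 0.10 in Δrad3. These values describe genes that share an array and are not independent. With A+T regressed out on each array, an alternative chosen after seeing the data, the members' mean was 0.37 in WT and 0.26 in Δrad3. limma then called 2 members in WT, tpi1 at 0.58 (adjusted p = 0.0466) and tdh1 at 0.66 (adjusted p = 0.0493). The difference between strains was then -0.36 at tpi1 and between -0.17 and -0.01 at fba1, gpd3, adh1, tdh1, pdc101 and eno101. At pgk1 it turned to 0.12. With A+T in the fit, the difference between strains at most members was smaller by more than 1.5 times. The part of composition in these levels was not tested. With normexp background correction it was 0.11 at adh1, 0.11 at tdh1 and 0.09 at gpd3, with Δrad3 the higher strain.

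**Figure D2:**
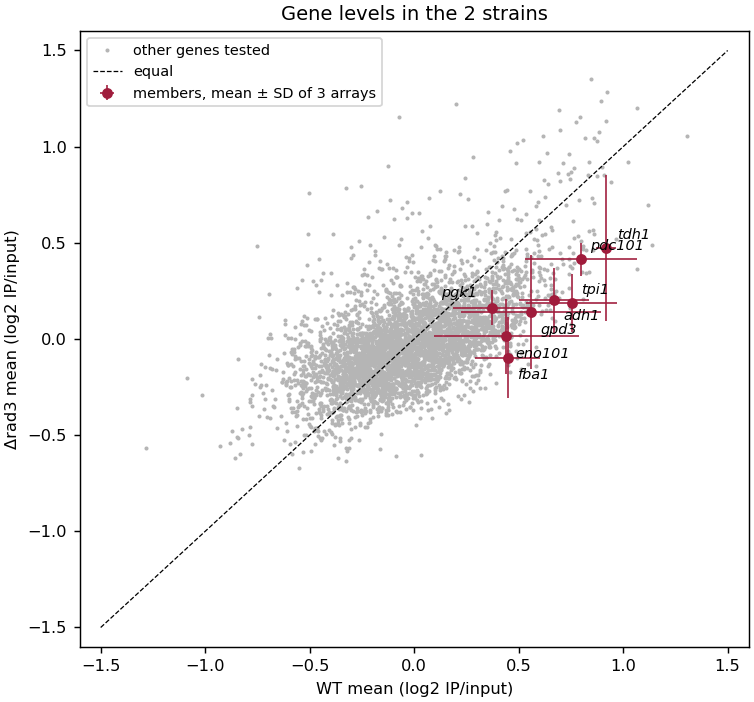
Mean Rad52 IP/input (log2) of each gene in WT (horizontal axis) and Δrad3 (vertical axis), with the 8 members as labelled points (bars are ± 1 SD of 3 arrays) among the other genes tested in grey. The members lie below the dashed line of equal values, between 0.37 and 0.92 in WT and -0.10 and 0.47 in Δrad3.

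The signal was not level along the members. On the mean over the 8 genes it was higher toward the gene end than at the start, highest in the first 500 bp past the end and near the array median beyond that. Averaged over the 8 genes, WT stood at 0.22 in the 500 bp before the start, 0.45 from the start to the midpoint of the gene, 0.83 from the midpoint to the end, 1.10 in the first 500 bp past the end and 0.09 in the next 500 bp. Δrad3 followed the same course at lower values, with -0.14, 0.02, 0.38, 0.62 and -0.04. Away from the genes, the window 4 to 3 kb before the start stood above the array median in both strains (0.24 and 0.37). On Δrad3 replicate 3 it stood at 0.54. In Δrad3 it exceeded the first 500 bp past the end at tpi1 (0.92 against 0.61) and pgk1 (0.44 against 0.32). At pgk1 the window 3 to 2 kb before the start exceeded the first 500 bp past the end in both strains. It stood at 0.94 against 0.70 in WT and 0.66 against 0.32 in Δrad3. At tdh1 in WT the windows 5 to 4 and 4 to 3 kb before the start stood at 0.72 and 0.70, beside 0.72 from start to midpoint. In the first 500 bp past the end the WT arrays stood at 1.14, 1.27 and 0.90 and the Δrad3 arrays at 0.78, 0.54 and 0.55, and the strains did not overlap. Without the library labelled WT replicate 2 the WT mean there was 1.02. Over all genes the same window stood at 0.10 in WT and 0.09 in Δrad3, and there too it was the highest of the profile in each strain's mean. The width of 500 bp was chosen after values had been seen, and chromatin was sheared to fragments of about that length per the labels, which limits how finely a position can be read. A+T content of the 1-kb windows past the ends (median 65.6%) was close to that of all genes (64.7%). In the 1-kb windows before the starts it was lower, at a median of 57.65% against 66.6%. The part of composition in the course along the genes was not tested.

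**Figure D3:**
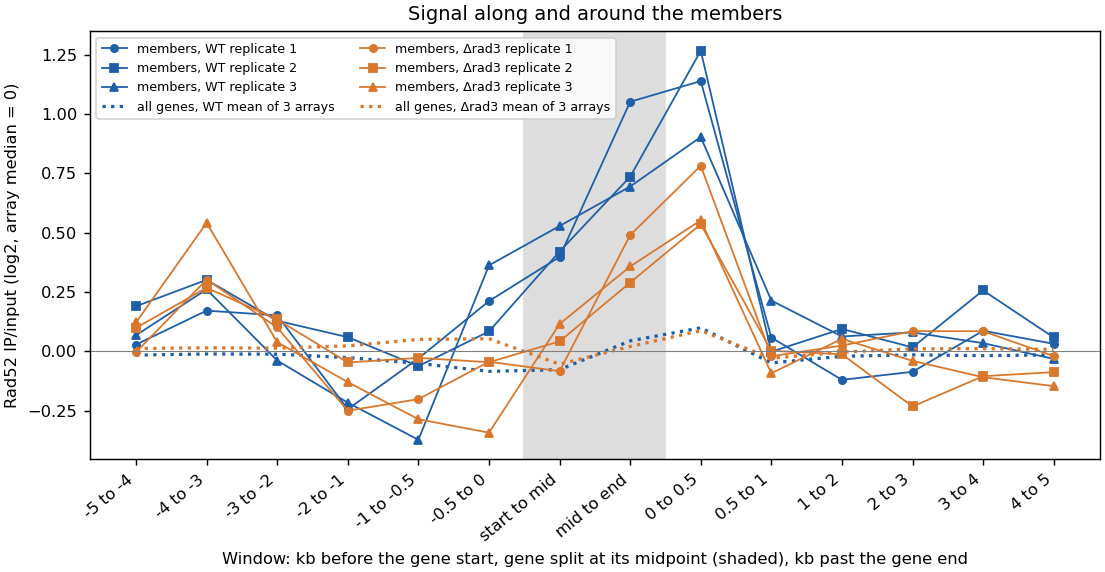
Rad52 IP/input (log2, vertical axis) by position (horizontal axis: kb before the start, the gene split at its midpoint and shaded, kb past the end), as the mean over the 8 members on each of 6 arrays (solid lines) and over all genes for each strain (dotted lines). On every array the members' line peaks in the first 500 bp past the end. The peaks stand at 0.90 to 1.27 in WT and 0.54 to 0.78 in Δrad3. The all-gene lines stay near 0, with their highest point in the same window.

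Probe by probe, the highest WT mean within 1 kb of each gene lay in the first 500 bp past the end at all 8 members, against 23.5% of genes. It lay 103 bp past the end at pgk1, the nearest, and 334 bp past at tdh1, the farthest. On the mean of WT replicates 1 and 3 alone it lay past the end at 6 of 8, and inside the gene at tdh1 and adh1 (-317 and -74.5 bp from the end). The share of genes was not counted for that mean. In Δrad3 the highest mean lay in the first 500 bp past the end at 5 of 8 members, against 21.7% of genes. At the other 3, tpi1, tdh1 and pdc101, it lay inside the gene, at -147, -317 and -112 bp from the end, against 33.3% of genes. The levels of the WT peaks ran from 1.18 at pgk1 to 1.75 at pdc101.

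At pdc101 the peak probe (chromosome I 101455 to 101514), all but a few bases of it within the window printed above, stood at 1.54, 1.98 and 1.75 on the WT arrays and 0.78, 0.77 and 1.47 on Δrad3. All Δrad3 values lay below the lowest WT value. At fba1 the peak probe (chromosome II 1689767 to 1689826), inside the printed window, stood at 1.93, 1.76 and 1.08 in WT and 1.52, 0.91 and 0.92 in Δrad3. The next probe but one already stood at 0.44 and 0.22 in the strain means.

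At adh1 the probe at chromosome III 1592998 to 1593057, inside the printed window, was the highest in both strains, with 1.55, 2.33 and 1.20 in WT and 1.57, 1.18 and 0.87 in Δrad3. The strains overlapped there, since Δrad3 replicate 1 stood above WT replicates 1 and 3. At eno101 both probes past the end were high in WT, at a mean of 1.17 for the first (chromosome II 2202689 to 2202748, inside the printed window) and 1.63 for the second (2202916 to 2202975, just past it). In Δrad3 they stood at 0.66 and 0.69. The second spread widely, from -0.14 on Δrad3 replicate 3 to 2.23 on the library labelled WT replicate 2.

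tpi1 had the least spread among WT arrays at its peak probe, with 1.45, 1.47 and 1.37 in WT and 0.85, 0.65 and 0.28 in Δrad3. gpd3 differed from the others in that the stretch from its start to its midpoint (0.70 in WT) was higher than the stretch from there to its end (0.42). Its peak probe stood at 0.60, 1.52 and 1.66 in WT and 0.11, 0.74 and 1.59 in Δrad3, lowest in both strains on slide 1.

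**Figure D4:**
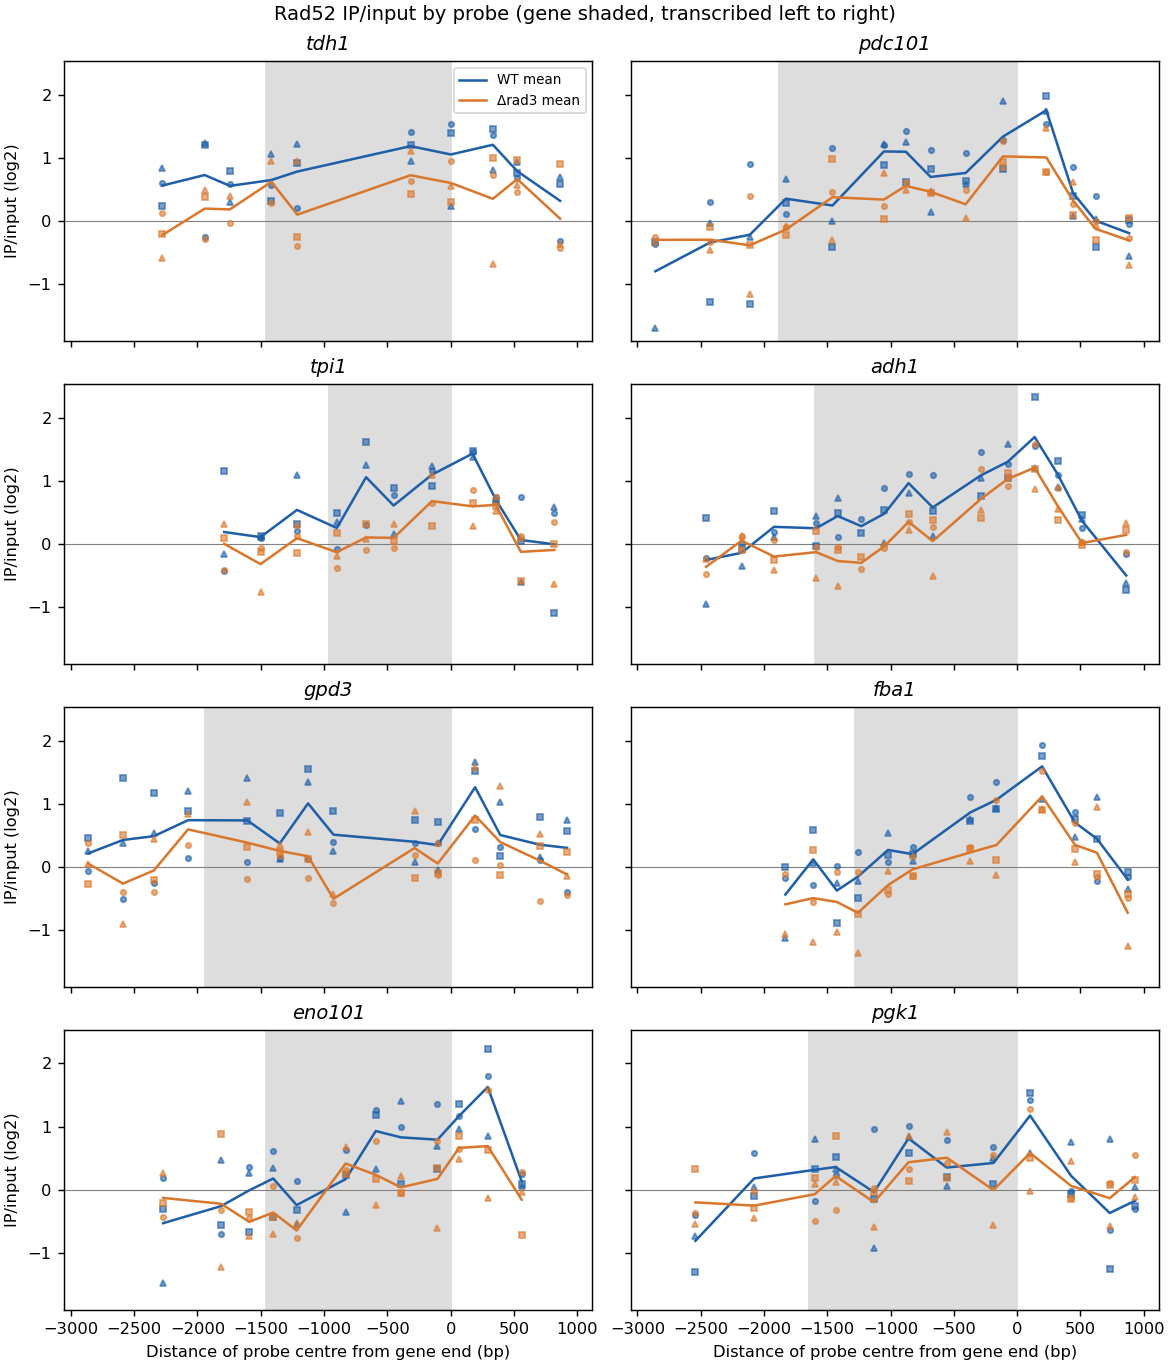
Rad52 IP/input (log2, vertical axis) of every probe from 1 kb before to 1 kb past each of the 8 genes, by distance of the probe centre from the gene end (bp, horizontal axis; gene shaded, transcribed left to right). Points are arrays (circle, square and triangle for replicates 1, 2 and 3; WT blue, Δrad3 orange) and lines are strain means, which in WT are highest within 334 bp past the end in all 8 panels.

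In 1-kb windows on both sides of the gene, limma called the window past the end higher than the window before the start, over both strains, at 5 of 8 members, against 10.2% of 4480 genes, at 3 with normexp background correction and at 4 without the library labelled WT replicate 2. eno101 had the largest such difference, 0.96 (adjusted p = 0.000723 in limma). pdc101 followed at 0.75 (adjusted p = 0.00344), fba1 at 0.73 (0.0047), adh1 at 0.67 (0.00169) and pgk1 at 0.47 (0.0337). tpi1 (0.30, adjusted p = 0.188), tdh1 (0.23, 0.286) and gpd3 (0.20, 0.355) did not pass in limma, and these 3 alone stood above the array median in WT before the start as well, at 0.28, 0.61 and 0.47. The first 500 bp past the end stood above the stretch from start to midpoint on all 6 arrays at tpi1, adh1, eno101, fba1 and pdc101, 5 of 8 members, against 14.9% of genes.

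By strain, the window past the end was called in WT at 6 of 8 members (7.24% of genes): eno101 0.98, tdh1 0.77, adh1 0.67, fba1 0.63, tpi1 0.55 and pdc101 0.50. The window before the start was called in WT at tdh1 alone (0.61, adjusted p = 0.0249 in limma; 4.44% of genes). Leaving out the library labelled WT replicate 2, limma called the window past the end in WT at tpi1 and eno101 alone (3.33% of genes) and the window before the start at 0 of 8 members (1.02%). In Δrad3 neither window was called at any member (3.4% of genes past the end, 6.03% before the start), with adh1 past the end nearest to the threshold (0.49, adjusted p = 0.0766 in limma). No window differed between strains at any member after adjustment. The smallest adjusted p was 0.393, before the start of tdh1 (-0.57).

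Other genes lay within 1 kb of most members. The window past eno101 reaches cut2, the securin gene, whose own 3′ end faces that of eno101 at a distance of 347 bp, and pdc101 faces pfl8 in the same way at 283 bp. Past adh1 the next gene also converges, at 512 bp. Past tpi1, fba1, pgk1 and tdh1 the next gene runs in the same direction, pog1 at 245 bp, prp38 at 538 bp, kap123 at 696 bp and tfb5 at 822 bp. Of these members, eno101, pdc101, adh1, fba1 and pgk1 were called higher past the end than before the start, and tpi1 and tdh1 were not. The part of neighbouring genes in the signal was not tested.

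Other genes of sugar metabolism were examined by the same fit. Of 12 other measured genes of glycolysis and fermentation, 1 was called in WT: gpd1, which encodes a glycerol-3-phosphate dehydrogenase, at 0.60 ± 0.16 (SD, n = 3; adjusted p = 0.0305 in limma). Their median was -0.10 in WT and -0.16 in Δrad3, beside -0.03 in both strains over all genes. The members' medians were 0.61 and 0.17. Among 8 hexose transporter genes 2 were called in WT, ght5 at 0.81 ± 0.46 (adjusted p = 0.0305) and ght2 at 0.76 ± 0.18 (adjusted p = 0.0217; SD, n = 3, limma), with a median of 0.20 in WT and 0.03 in Δrad3.

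Of 5 pentose phosphate genes 1 was called in WT, the transaldolase gene tal1 at 0.67 ± 0.29 (SD, n = 3; adjusted p = 0.0287 in limma), and it stood at 0.06 in Δrad3. tef3, an elongation factor of translation, was 1 of 2 measured genes of that kind and stood at 0.74 ± 0.26 in WT (SD, n = 3; adjusted p = 0.0175 in limma) and 0.16 in Δrad3. Of 13 measured genes of the tricarboxylic acid cycle 0 were called in WT, with medians of 0.19 and -0.02, and of 15 meiosis-specific genes 0, with medians of -0.11 and 0.03. No gene of these 6 lists was called in Δrad3 or between strains. Without the library labelled WT replicate 2, none of gpd1, ght5, ght2, tal1 and tef3 was called in WT, at adjusted p-values of 0.0678 to 0.113 in limma and levels of 0.55 to 0.66. No list was tested against another.

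The genes whose 6 array values lay nearest to those of tpi1 were pgm1 (root mean square distance 0.08), str1 (0.14) and enp2 (0.14). Those nearest to adh1 were pil1 (0.13), gas2 (0.13) and sir1 (0.14). pgm1 stood at 0.44, 1.03 and 0.65 on the WT arrays and 0.13, 0.29 and 0.32 on Δrad3, the library labelled WT replicate 2 being the highest as at tpi1.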

How the data were processed

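Rad52 IP and input DNA were compared on 6 two-colour Agilent tiling arrays, 3 labelled WT and 3 Δrad3. Per the file headers, the deposited intensity values came from Agilent Feature Extraction 10.7.3.1, background-subtracted, spatially detrended and dye-normalized within each array. The authors' deposited log10 values are red over green, per the file headers. The design text mentions reciprocal labels, whereas each sample's labels put IP in the same dye. log2 values of IP over input were computed here from the deposited processed intensities and centred on each array's median, with no loess or quantile step. Outlier-flagged spots were left out (4 to 3535 per array), so some gene means lack a probe on an array, and no probe of a member was saturated. Probes needed input well above background on at least 3 arrays.

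Headers name the build Spombe:NCBI:Feb2002. Probe lengths matched A+T content of ASM294v3 within 20 bp in 107 of 107 windows outside the part left out, and in 1 of 19 within it. Genes needed at least 2 probes. Strain means were fitted in limma 3.58.1 (R 4.3.3), with Benjamini-Hochberg adjustment over all genes. Arrays of one number share a slide per the file headers, and the pairing by number rests on these. The deviations of such arrays correlated at 0.53, 0.12 and 0.22. Between WT and Δrad3 arrays of different slides the correlations ran from -0.43 to 0.18, a range that holds the value of slide 2. The genes, lists, windows and tests were chosen with earlier results of these data known. Text names all members, called genes of each list, the 3 genes nearest to tpi1 and to adh1, and rad3; eno102 and the neighbours were added after values were seen. Alternatives were normexp background, other probe summaries, coding sequence alone, 1-kb bins, trended robust variance, the slide as a block, arrays of 1 protocol text, each array left out, the block without WT replicate 2, and A+T regressed out. Tests were tried on simulated data first.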

Additional observations from a re-analysis of the deposited data

How the results depend on the processing

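The number of arrays and an IP signal of 5.10 (WT) and 6.19 (Δrad3) times background on replicate 3 limit precision, and dye bias was not removed. The 4 members called in WT became 0 with normexp background correction, 0 with a trended robust variance, 2 with the coding sequence alone, 2 with A+T regressed out and 7 in 1-kb bins, and ranged from 0 to 5 with 1 array left out. Over all genes the 80 called in WT became 0, 0, 40 of 3978, 57 and 215 of 4541 genes in the same order, and 12 to 290 with 1 array left out. The bins were averaged per gene. The members' mean in WT was 0.29 with normexp and 0.37 with A+T regressed out, and 0.58 to 0.64 with 1 array left out. In Δrad3 it was 0.14 with normexp, 0.12 with the coding sequence alone and 0.26 with A+T regressed out, and 0.17 to 0.20 with 1 array left out. The 5 members called higher past the end than before the start were 3 with normexp and 4 to 5 with 1 array left out. The share of all genes called so was counted for the main fit alone.

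With the slide (the replicate number) as a replicate block, 5 members were called in WT (gpd3 added; 175 of all genes), 0 in Δrad3, 0 between strains and 5 past the end. The block takes slide variation out of the error but not out of a strain's mean. With the block, and leaving out the library labelled WT replicate 2, the counts were 5, 0, 0 and 4, with gpd3 lost (adjusted p = 0.133 in limma) and eno101 gained (0.60, adjusted p = 0.0228). Of all genes 108 were then called in WT, and 38 were higher and 1 lower in Δrad3, none a member. The counts in Δrad3 and between strains were 0 under every alternative run. In Δrad3 the level limit of 0.5 was part of that result. The lowest adjusted p there over the alternatives was 0.00765 at tdh1 and 0.00877 at pdc101 in limma, with means under that limit.

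Some values changed sign. With normexp the difference between strains was 0.11 at adh1, 0.11 at tdh1 and 0.094 at gpd3, and with A+T regressed out 0.12 at pgk1. In Δrad3, eno101 stood at -0.035 with normexp, -0.0085 with the median over probes, and -0.071, -0.0076 and 0.12 without Δrad3 replicates 1, 2 and 3. gpd3 ranged from -0.021 without Δrad3 replicate 3 to 0.27 without Δrad3 replicate 1. adh1 stood at -0.028 with the coding sequence alone, and fba1 at 0.085 in 1-kb bins. The cause of these changes was not tested. The windows beside the genes were not refitted for the coding sequence, bins or A+T.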
